A study of Mus musculus with 23 samples.

Results

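Liver gene expression of female B6C3F1 mice given furan at 4 mg/kg was set against that of vehicle controls. The 9 arrays were chosen by their titles alone, out of 23 in the series: 4 carry the 4 mg/kg dose and 5 are controls, each a biological replicate. The 4 mg/kg animals received furan dissolved in corn oil by oral gavage for 21 days, and the controls received corn oil alone on the same schedule. Both groups were bought at 5 to 6 weeks of age, acclimatised for at least 7 days, and had tissue taken 4 h after the last dose. B6C3F1 is a hybrid laboratory strain widely used in carcinogenicity testing. The other 14 arrays came from 4 animals given 1 mg/kg, 5 given 2 mg/kg and another 5 given 8 mg/kg. They enter here for the shared estimate of spread and for the neighbouring doses.

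Furan is a small volatile ring compound that forms when food is heated. In the liver the cytochrome P450 enzyme Cyp2e1 opens the ring to a reactive dialdehyde, which binds glutathione, proteins and DNA bases. Cells under such stress can stabilise p53, a transcription factor that switches on genes of growth arrest, cell death and metabolic adjustment. Reactive compounds can also release the transcription factor NRF2 from its inhibitor, and NRF2 then drives glutathione and detoxification enzymes.

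Every value is a log2 ratio of liver RNA (Cy5) to a universal mouse reference RNA (Cy3) on the same array, so a value of 0 means equal signal in both. The 9 arrays had 22010 to 29033 probes well above background and 0 saturated Cy5 spots. Arrays within the 4 mg/kg group correlated at a median of 0.971, arrays within the control group at 0.973 and arrays of the 2 groups with each other at 0.971. The hepatocyte gene Cyp2e1 read 6.60 to 6.95 in the 4 mg/kg group and 6.99 to 8.06 in controls, far above the reference in every liver. The arrays lay on 5 slides: slides 1, 4 and 5 held both groups, slide 2 held a 4 mg/kg array and no control, and slide 3 a control and no 4 mg/kg array.

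One library stood apart in the 4 mg/kg group. Of 28 exocrine pancreas markers 8 were measured, and their mean lay 4.09 above the control mean in replicate 1 at 4 mg/kg. The other 3 animals at 4 mg/kg lay 0.01 to 0.29 above it, and the controls between -0.28 and 0.30. The colipase gene Clps read 6.62 in that replicate, against 0.57 to 0.96 in the rest of the 4 mg/kg group and -0.07 to 1.14 in controls. Counts of genes called against control, by group alone or with slide as a block, are given with and without this animal where it moves them. Counts of genes without overlap and counts at an unadjusted p are given only with it. Whether a tissue other than liver has a part in any result was not tested.

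The main finding at 4 mg/kg was narrow: of 19899 genes tested, 15 had a limma adjusted p below 0.05. Of these, 10 were higher at 4 mg/kg (0.0503% of the genes tested) and 5 were lower (0.0251%). The p53 target genes Cdkn1a and Aen shared the lowest adjusted p, and the stress cytokine gene Gdf15, also a p53 target, was among the 15. The genes Tubb4b, Tomm40l and Car15 rose as well, and Mettl27 and 4930581F22Rik fell. Another 6 came from probes that carry no current gene symbol, among them a fall measured near background. In all 15 the 4 arrays at 4 mg/kg did not overlap the 5 controls. The same sign of the difference on each of the 3 shared slides follows from that and is not a separate result. Across all genes the 4 mg/kg arrays lay wholly above the controls for 299 genes (1.5%) and wholly below them for 425 (2.14%).

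The number of calls depended on how slides and the spread were handled. With slide as a block 63 genes passed, 48 higher (0.241%) and 15 lower (0.0754%), and all 15 genes were among them. That fit without replicate 1 at 4 mg/kg, chosen after seeing the data, gave 22 calls, 8 of them among the 15. Arrays of the 2 groups that shared a slide correlated at 0.15 to 0.31 in their deviations from the group means (4 pairs). In the fit by group alone, without replicate 1 at 4 mg/kg 10 genes passed, 8 of them among the 15. Without the 4 arrays of the series rich in pancreatic transcripts, that replicate among them, 3 passed. All 3 were among the 15, Cdkn1a and Aen with them. Leaving out any 1 of the 9 arrays gave 5 to 17 calls, the fewest without replicate 2 at 4 mg/kg and 6 without replicate 3 or without control replicate 3. It gave 8 without replicate 4 at 4 mg/kg or without control replicate 2 or 4. Centring the arrays on their median in place of loess gave 48 higher and 5 lower. Fitted on the 9 arrays alone, with 7 residual degrees of freedom in place of 18, 1 gene passed and none of the 15 did. That gene was the tubulin gene Tuba1c (limma adjusted p = 0.034, and 0.156 over all arrays), named here after its values were seen, with values of 0.01, 0.02, -0.00 and -0.01 at 4 mg/kg and of -0.75, -0.72, -0.93, -0.74 and -0.75 in controls.

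Cdkn1a encodes p21, an inhibitor of the cyclin-dependent kinases that move cells through the cycle, and is the textbook p53 target. Its log2 ratios were -2.68, -2.69, -2.97 and -2.96 in the 4 mg/kg animals, against -3.52, -4.02, -4.01, -4.73 and -4.29 in controls. The 4 treated animals lay close together, above every control, while the controls spread over more than a full log2 unit. Cdkn1a averaged -2.82 ± 0.16 (SD, n = 4) at 4 mg/kg and -4.12 ± 0.44 (SD, n = 5) in controls, a rise of 1.29 ± 0.17 on the log2 scale (standard error, 2.45-fold, limma adjusted p = 0.00204). Within slides 1, 4 and 5 its difference was 2.05, 1.05 and 0.94.

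Aen encodes a p53-induced nuclease that takes part in apoptotic DNA breakdown. It read -0.10, 0.14, 0.03 and 0.26 at 4 mg/kg, against -0.60, -0.64, -0.73, -0.52 and -0.63 in controls. The control animals agree within a narrow band, and the lowest treated animal lay clearly above it. The rise was 0.71 ± 0.09 (1.63-fold, limma adjusted p = 0.00204), with 0.42, 0.99 and 0.65 on the shared slides. Cdkn1a and Aen were the 2 of these 8 named genes that passed the threshold whichever of the 9 arrays was left out, at adjusted p values up to 0.02.

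Gdf15 encodes a secreted stress cytokine that acts on appetite centres of the brainstem and is induced by p53 and by other stress pathways. Its values were 0.36, 0.77, 0.39 and 0.20 at 4 mg/kg and -0.79, -0.38, -1.08, -1.25 and -0.85 in controls. All treated animals read above the reference RNA and all controls below it. The rise was 1.30 ± 0.24 (2.46-fold, limma adjusted p = 0.0442), and 1.62, 1.28 and 1.21 within slides. Of the 9 fits that leave out 1 array, Gdf15 passed in 1, the fit without control replicate 2. In the other 8 its adjusted p was 0.0572 to 0.157, while over all 9 its difference stayed between 1.19 and 1.42.

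**Figure D1:**
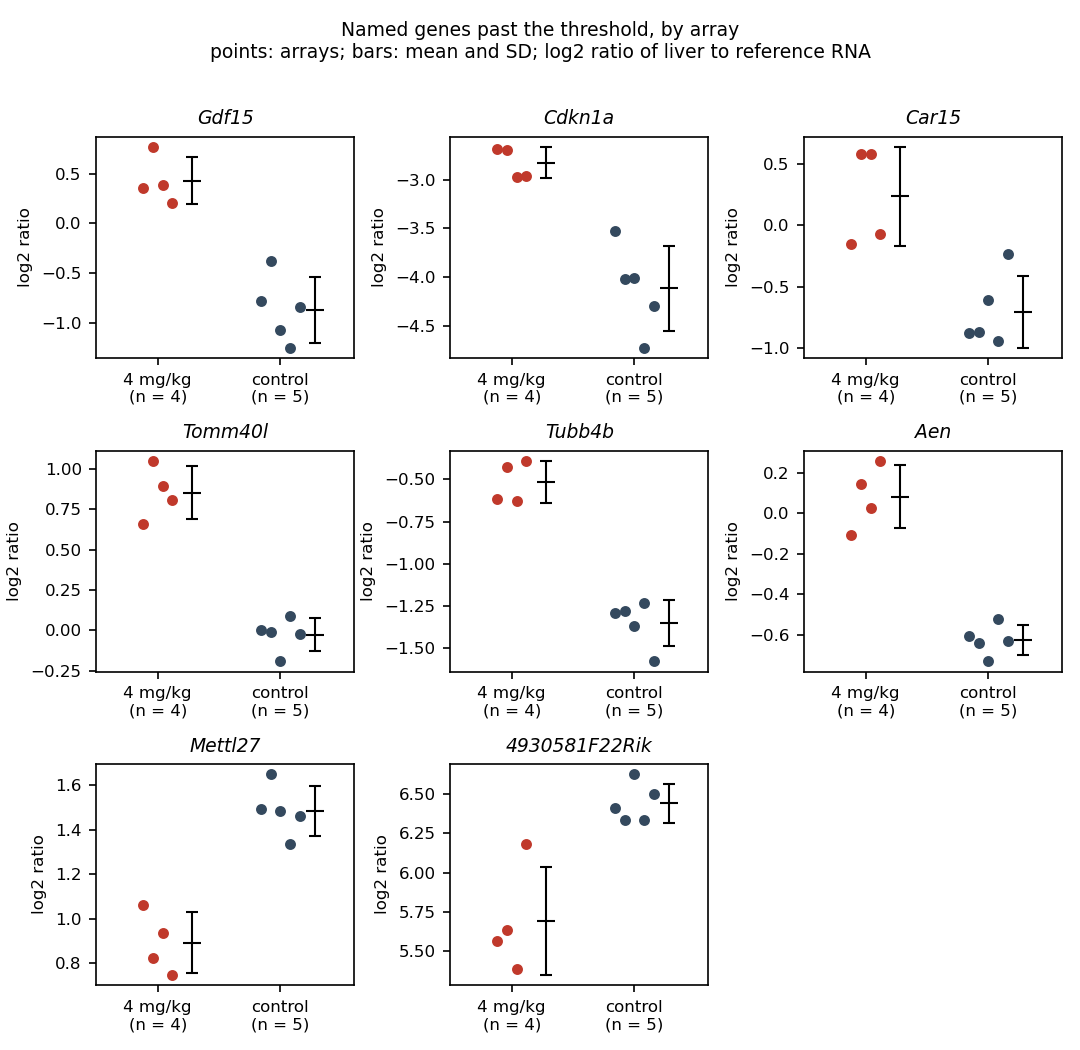
Log2 ratios of liver to reference RNA on each array for the 8 named genes past the threshold, with 4 mg/kg at left (4 animals) and control at right (5 animals) in each panel, each panel on its own scale. Points are arrays and bars give the mean and SD; in every panel the groups do not overlap, with Cdkn1a at -2.97 to -2.68 in the 4 mg/kg animals and -4.73 to -3.52 in controls.

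The promoters of Cdkn1a and Aen are shown because these 2 p53 targets passed whichever of the 9 arrays was left out. RefSeq sequence of build GRCm38.p6 was read for the 250 bases before a gene start, and the p53 half-site was searched on its own 10 letters (3 purines, C, A or T, A or T, G, 3 pyrimidines), a pattern that reads the same on both strands. Capitals mark the matches. The Cdkn1a window lies at chr17:29090729-29090978 and the Aen window at chr7:78895808-78896057, both on the plus strand and both read 5′ to 3′.
Cdkn1a: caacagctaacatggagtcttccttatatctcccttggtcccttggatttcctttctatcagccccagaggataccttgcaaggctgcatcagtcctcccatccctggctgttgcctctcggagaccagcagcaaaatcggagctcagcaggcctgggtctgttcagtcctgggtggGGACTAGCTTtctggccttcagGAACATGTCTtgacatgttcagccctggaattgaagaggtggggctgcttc
Aen: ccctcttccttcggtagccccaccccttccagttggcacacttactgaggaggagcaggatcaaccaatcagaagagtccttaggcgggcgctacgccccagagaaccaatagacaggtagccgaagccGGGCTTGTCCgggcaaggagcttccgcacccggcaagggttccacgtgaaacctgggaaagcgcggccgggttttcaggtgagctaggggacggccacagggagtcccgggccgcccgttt
The Cdkn1a window held 2 matches, beginning 73 and 51 bases before the start, and the Aen window held 1, beginning 121 bases before it. For each of the 2 genes a second listed start had no match in its window, and neither did the 2 listed windows of Gdf15. Of 27025 genes with a listed promoter 8.2% had a match in at least 1 window, as did 7.5% of the 10310 tested genes that could be looked up and 8 of the 23 measured p53 list members that could be. A match is a string of letters and shows no binding.

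Tubb4b encodes a beta-tubulin of cytoplasmic microtubules. It read -0.62, -0.42, -0.63 and -0.39 at 4 mg/kg and -1.29, -1.28, -1.37, -1.24 and -1.58 in controls, with a wide gap between the groups. The rise was 0.84 ± 0.13 (1.79-fold, limma adjusted p = 0.0112). Its adjusted p was 0.0634 without replicate 2 at 4 mg/kg and 0.0511 without replicate 4. Tubb4b also did not pass without the 4 arrays of the series rich in pancreatic transcripts. Beta-tubulin genes are close in sequence, so a probe for one may also bind transcripts of another, which was not tested. Tubb2a, another beta-tubulin, was 0.95 ± 0.32 higher without passing (limma adjusted p = 0.317), and Tubb6 0.42 ± 0.12 higher (adjusted p = 0.23).

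Tomm40l encodes a relative of the channel protein that imports proteins across the outer mitochondrial membrane. Its values of 0.66, 1.05, 0.90 and 0.81 at 4 mg/kg all lay above the controls at 0.00, -0.01, -0.19, 0.09 and -0.02. The rise was 0.88 ± 0.14 (1.84-fold, limma adjusted p = 0.0146). It fell short of the threshold, at adjusted p values of 0.0523 to 0.0891, without control replicate 3 or without replicate 2 or 3 at 4 mg/kg. Tomm40l also did not pass with normexp background correction, without background correction, in the deposited ratios or with replicate number as a block. Over all alternatives its difference was 0.59 to 0.95, at limma adjusted p values up to 0.229.

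Car15 encodes a carbonic anhydrase of the membrane-anchored kind. Its treated values split into a low pair, -0.15 and -0.07, and a high pair, 0.58 and 0.58, against -0.88, -0.87, -0.60, -0.94 and -0.23 in controls. The rise was 0.94 ± 0.18 (1.92-fold, limma adjusted p = 0.0449). It was 0.55 with normexp (limma adjusted p = 0.156). The gap between the lowest treated and the highest control animal was small, and the call was kept in 2 of 9 fits that leave an array out, those without control replicate 5 and without replicate 1 at 4 mg/kg. In whole liver a change in the cells that hold a transcript and a change in its level per cell cannot be told apart, and this holds for each gene described.

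Mettl27, named for a methyltransferase-like protein, read 1.06, 0.82, 0.94 and 0.75 at 4 mg/kg, against 1.49, 1.65, 1.48, 1.34 and 1.46 in controls. It fell by 0.59 on the log2 scale (standard error 0.10, limma adjusted p = 0.0178) and passed in 4 of 9 fits that leave an array out, those without control replicate 1, 4 or 5 or without replicate 1 at 4 mg/kg. Mettl27 did not pass as the mean over a gene's probes or without the filter on dim probes. The transcript 4930581F22Rik read 5.56, 5.64, 5.39 and 6.18 at 4 mg/kg and 6.41, 6.33, 6.62, 6.34 and 6.50 in controls. Its fall of 0.75 ± 0.14 (limma adjusted p = 0.0449) passed in 1 of the 9 fits that leave an array out, the one without replicate 4 at 4 mg/kg, the treated animal nearest to the controls. The fall also did not pass with normexp, without background correction, without loess or in the deposited ratios. Over all alternatives the difference was -0.91 to -0.65, at limma adjusted p values up to 0.304.

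**Figure D2:**
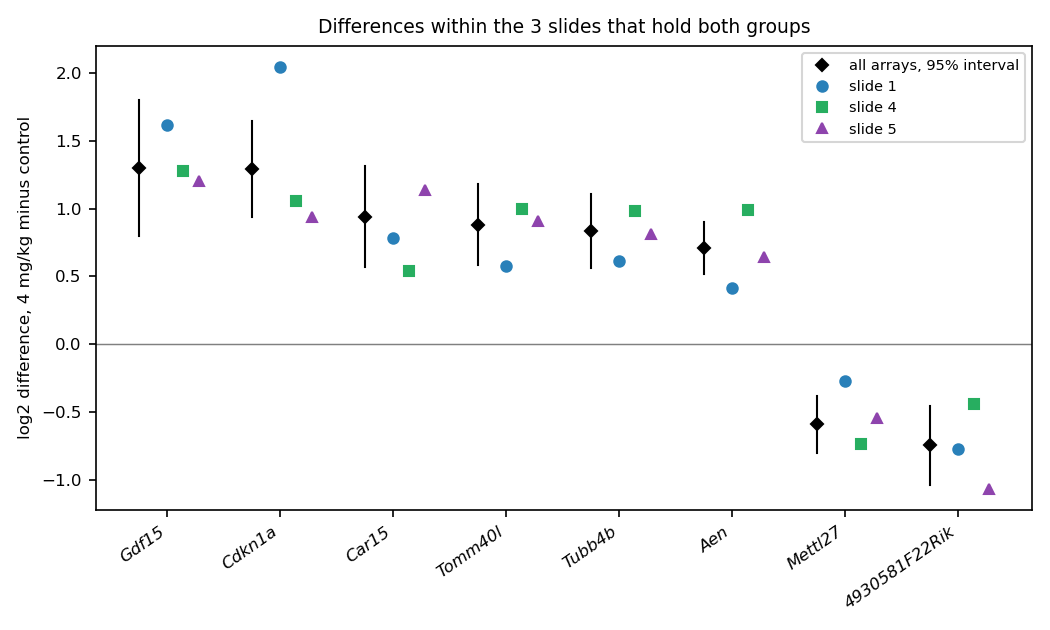
Log2 differences, 4 mg/kg minus control, of the 8 named genes past the threshold. Black diamonds and lines give the estimate over all arrays with its unadjusted 95% interval, and coloured marks the differences within slides 1, 4 and 5. All 6 rising genes lie above 0 and both falling genes below 0 on each slide, which the lack of overlap between the groups fixes in advance.

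Among the probes without a symbol, a region on the forward strand at chr4:149445201-149445902 in build mm9, as the array design names it, read -0.65, -0.10, -0.73 and -0.09 at 4 mg/kg and -1.57, -2.45, -2.75, -1.96 and -2.67 in controls. It rose by 1.89 ± 0.27 (3.69-fold, limma adjusted p = 0.00423) and passed whichever array was left out. Its difference was smaller but still passed with normexp, at 0.98, and in the deposited ratios, at 1.13. It was 0.91 without background correction and did not pass (limma adjusted p = 0.166). The predicted transcript XR_002167 rose by 0.61 ± 0.09 and also passed whichever array was left out. It did not pass without the 4 arrays of the series rich in pancreatic transcripts. Among those that fell, the region at chr19:36699712-36763966 on the reverse strand in mm9 dropped by 1.00 ± 0.18 (limma adjusted p = 0.0434), and lost its call in each of the 9 fits that leave an array out. As the mean over a gene's probes its difference was -0.34 (adjusted p = 0.554). The transcript ENSMUST00000115431 was lower by 0.78 ± 0.13 (limma adjusted p = 0.0178), with all controls and 2 of 4 treated arrays well above background. It passed in 4 of 9 fits that leave an array out, those without control replicate 1, 3 or 4 or without replicate 2 at 4 mg/kg. Its difference was -0.25 with normexp (limma adjusted p = 0.434), -0.19 without background correction (adjusted p = 0.603) and -0.22 in the deposited ratios (adjusted p = 0.426). At 8 mg/kg it differed from the same controls by -0.16 (limma adjusted p = 0.504). The region at chr3:85842798-85887216 on the forward strand in mm9 was also called lower (limma adjusted p = 0.0449). It was well above background on 0 of 4 arrays at 4 mg/kg and 2 of 5 controls, so it met the filter through another dose. Set against the detection floor its fall is at least 1.04-fold. The call was kept in 1 of 9 fits that leave an array out, the one without control replicate 2.

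Genes of the p53 pathway were described as a list of 32, of which 27 were measured. By the limma test 3 rose (Cdkn1a, Aen and Gdf15), 0 fell and 24 did not pass, against 0.0503% of all genes rising. Without replicate 1 at 4 mg/kg 2 rose, against 8 of all 19899 genes. With slide as a block 8 rose (0.241% of all genes in that fit): these 3 with Bax, Phlda3, Tnfrsf10b, Zmat3 and Ddias. In that fit without replicate 1 at 4 mg/kg 3 rose, Cdkn1a, Aen and Zmat3, against 18 of all 19899 genes. Phlda3 and Zmat3 are named here after their values were seen. All 4 treated animals lay above all 5 controls for 9 members (1.5% of all genes) and below them for 1, Ercc5 (2.14% of all genes). At an unadjusted p below 0.05, 12 members were higher (4.04% of all genes) and 2 lower (4.88%). The median difference of the list was 0.27, against -0.02 over all genes, and 0.20 without control replicate 2. Averaged over the list, the treated animals scored 0.30, 0.41, 0.45 and 0.37 above the control mean, and the controls 0.14, 0.01, -0.02, -0.22 and 0.09 around it.

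The members that did not pass in the fit by group alone were graded. Ddias, which encodes an anti-apoptotic DNA damage response protein, was 1.70 ± 0.33 higher (limma adjusted p = 0.0552), and 0.61 higher (adjusted p = 0.516) with normexp background correction of the median signals. It read -1.41, -1.42, -1.28 and -1.21 at 4 mg/kg and -2.17, -3.06, -3.10, -3.94 and -2.88 in controls, where 1 of 5 arrays was well above background, so the controls lie near the detection limit. The death receptor gene Tnfrsf10b was 1.01 ± 0.22 higher (adjusted p = 0.0812), although its lowest treated value, -3.44, lay below the highest control, -3.40. With normexp its difference was 0.41 (limma adjusted p = 0.556). The cyclin gene Ccng1 differed by 0.61 ± 0.13 (adjusted p = 0.0778) and the pro-apoptotic pore gene Bax by 0.50 ± 0.12 (adjusted p = 0.127). Mdm2, which encodes the ubiquitin ligase that degrades p53, read -1.18, -0.84, -0.82 and -0.80 at 4 mg/kg and -1.05, -1.15, -1.08, -1.23 and -1.07 in controls. Its difference was 0.20 ± 0.09 (limma adjusted p = 0.501), with replicate 1 below 4 of the 5 controls. The excision repair gene Ercc5 was lower by 0.27 ± 0.09 (limma adjusted p = 0.295).

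**Figure D3:**
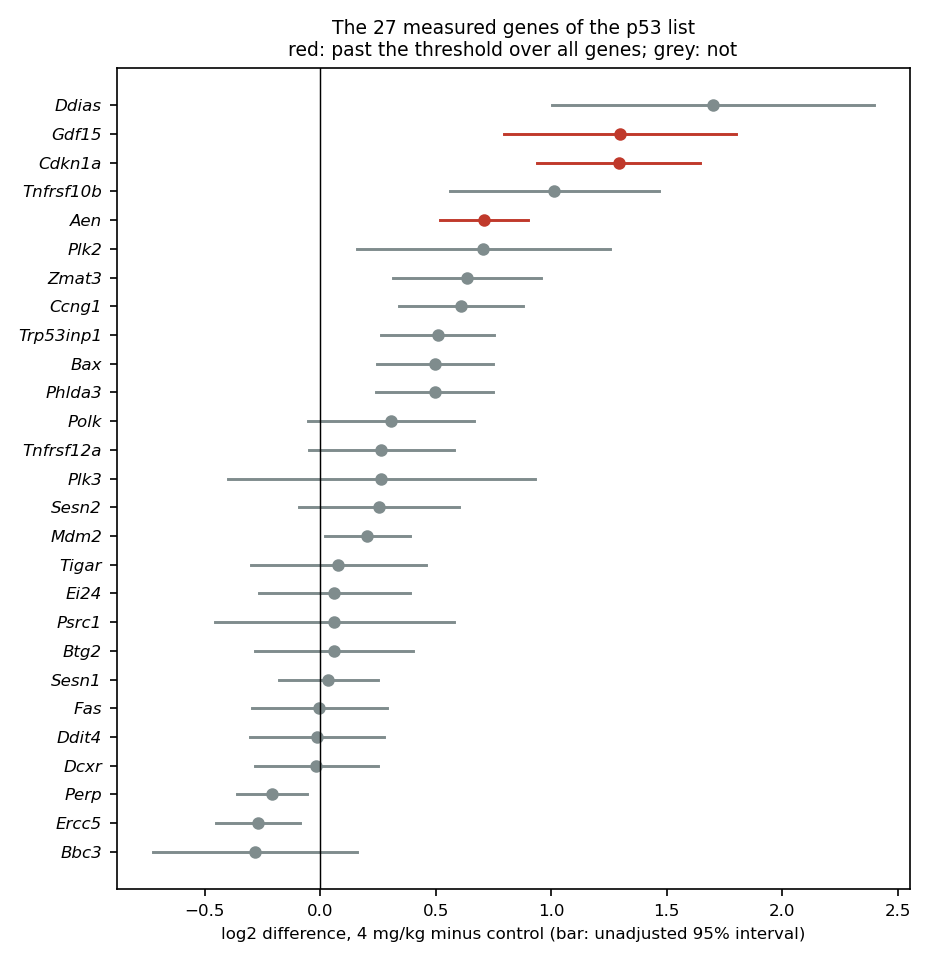
Log2 differences, 4 mg/kg minus control, of the 27 measured genes of the p53 list, sorted by size, with unadjusted 95% intervals. Red marks the 3 genes past the threshold over all genes (Cdkn1a, Aen and Gdf15) and grey the 24 that are not; 21 of the 27 differences are above 0.

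Chaperone genes of the heat shock response, which refold damaged proteins, had 24 of 25 members measured, and 0 passed the limma test. At an unadjusted p below 0.05, 9 were higher (4.04% of all genes) and 1 lower (4.88%), and 7 had all treated animals above all controls (1.5%). With slide as a block 1 rose (0.241% of all genes in that fit), Chordc1, an HSP90 co-chaperone. It read 0.40, 0.82, 0.73 and 0.56 at 4 mg/kg and 0.11, 0.40, -0.00, 0.07 and 0.35 in controls, a difference of 0.44 ± 0.10 with the groups almost touching. Its limma adjusted p was 0.0988, and blocking on slide made it 0.0321. Hsp90aa1, the inducible HSP90 gene, differed by 0.65 ± 0.17 (adjusted p = 0.161) and the constitutive HSP70 gene Hspa8 by 0.45 ± 0.11 (adjusted p = 0.158). The list median was 0.145. Its treated animals scored 0.15 to 0.23, above every control at -0.05 to 0.07. Hspb1, a small heat shock gene, was 0.13 ± 0.16 higher (limma adjusted p = 0.886).

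NRF2 and glutathione genes gave no calls: of 55 measured members 0 passed the limma test, and the median difference was -0.01. At an unadjusted p below 0.05, 2 were higher (4.04% of all genes) and 3 lower (4.88%). The glutathione transferase gene Gsta1 ranged from 0.78 to 2.38 at 4 mg/kg and from -1.51 to 1.41 in controls. Its difference of 1.10 ± 0.63 (limma adjusted p = 0.664) had a 95% interval of -0.21 to 2.41, which takes in both 0 and rises above 2 log2 units. Nqo1, a quinone reductase gene, differed by 0.51 ± 0.17 (adjusted p = 0.309). Gclc, which encodes the catalytic subunit that starts glutathione synthesis, differed by 0.02 ± 0.16. Hmox1, for heme oxygenase, differed by -0.04 ± 0.26.

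Furan's own handling genes gave 0 calls among 26 measured members by limma. At an unadjusted p below 0.05, 1 was higher (4.04% of all genes) and 1 lower (4.88%). Ephx1, microsomal epoxide hydrolase, read 2.61, 2.58, 2.47 and 2.63 at 4 mg/kg against 2.19, 2.11, 2.14, 2.42 and 2.17 in controls. Its difference was 0.37 ± 0.12 (adjusted p = 0.317), with all treated animals above all controls (1.5% of all genes). Cyp2e1 read 6.95, 6.60, 6.84 and 6.95 at 4 mg/kg and 6.99, 8.06, 7.18, 7.12 and 7.05 in controls. The treated animals lay wholly below the controls (2.14% of all genes), yet the difference of -0.45 ± 0.29 (adjusted p = 0.715) was -0.25 ± 0.28 without control replicate 2. That control, the one on slide 3, was also the highest control for pericentral hepatocyte markers, at 0.54 above the control mean, against -0.20 to -0.07 in the other controls and -0.25 to 0.08 in the treated animals. The median difference of the 23 markers was -0.19, and -0.02 without that control. It was -0.01 with slide as a block. For Cyp2e1 the arrays of slide 3 at 1, 2 and 8 mg/kg read 7.91, 8.03 and 7.73. Each was the highest of its dose group, where the other arrays read 6.60 to 7.07, so the high Cyp2e1 reading was not particular to that control. Slide 3 held no 4 mg/kg array, so leaving out that control also takes slide 3 out of the control group. This holds for every median given without that control. What sets slide 3 apart was not tested.

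**Figure D4:**
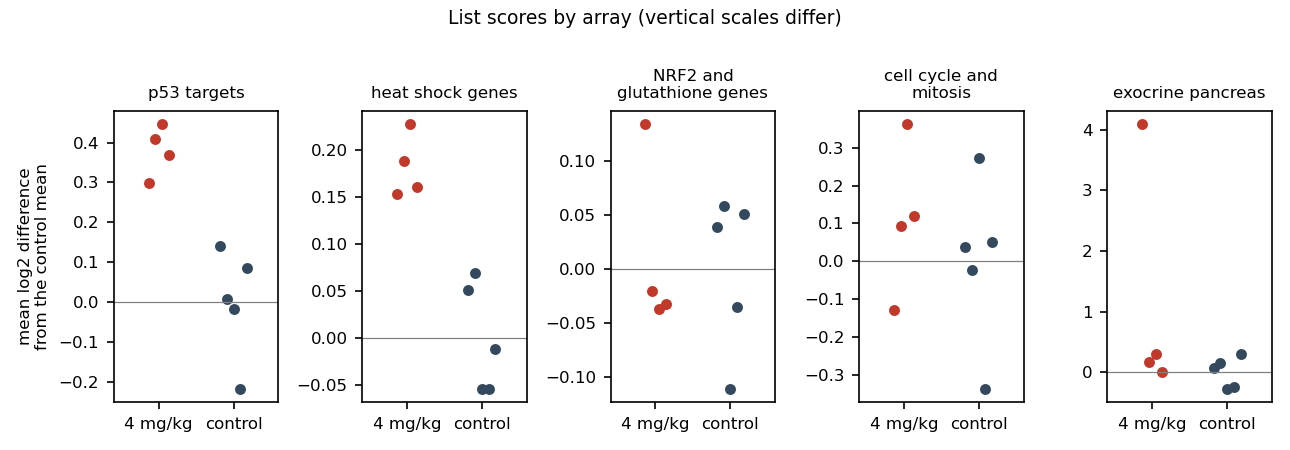
Mean log2 difference from the control mean over the measured members of 5 gene lists, for each of 4 animals at 4 mg/kg (left) and 5 controls (right); vertical scales differ between panels. The p53 scores run from 0.30 to 0.45 in the 4 mg/kg animals, above all controls, and the exocrine pancreas score is 4.09 in 1 treated animal.

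Immediate early genes, switched on within minutes of a stimulus, gave 0 calls among 26 by limma. At an unadjusted p below 0.05, 3 were higher (4.04% of all genes) and 1 lower (4.88%). Jun, a subunit of the AP-1 factor, read -3.00, -3.52, -3.59 and -3.33 at 4 mg/kg and -4.06, -4.17, -4.11, -3.90 and -3.93 in controls. All 4 treated animals lay above all controls (1.5% of all genes), with a difference of 0.67 ± 0.20 (adjusted p = 0.221). The stress factor gene Atf3 differed by 0.67 ± 0.20 (adjusted p = 0.247), and by 0.44 ± 0.18 without replicate 1, its highest array. Myc, a growth regulator, ranged from -4.16 to -2.02 at 4 mg/kg and from -4.49 to -3.42 in controls.

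Growth and tumour-related genes gave no calls by limma either. Among 37 measured cell cycle genes 0 passed. At an unadjusted p below 0.05, 2 were higher (4.04% of all genes) and 0 lower (4.88%). The proliferation marker Mki67 differed by 0.30 ± 0.27 (adjusted p = 0.825) and the cyclin D1 gene Ccnd1 by 0.53 ± 0.28 (adjusted p = 0.624). Of 18 measured oncofetal and tumour markers 0 passed and 4 were higher at an unadjusted p below 0.05 (4.04% of all genes). Afp, which encodes the fetal serum protein alpha-fetoprotein, read 0.08, -1.05, -1.48 and -1.52 at 4 mg/kg and -2.06, -1.84, -2.19, -2.80 and -2.06 in controls. Every treated animal was above every control (1.5% of all genes), and the difference was 1.20 ± 0.30 (adjusted p = 0.132). Replicate 1, the animal rich in pancreatic transcripts, was the highest, and without it the difference was 0.84 ± 0.26.

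Among 34 measured cell death mediators 0 passed by limma. At an unadjusted p below 0.05, 3 were higher (4.04% of all genes) and 3 lower (4.88%). With slide as a block 2 rose (0.241% of all genes in that fit), Bax and Tnfrsf10b, and 0 in that fit without replicate 1 at 4 mg/kg. The pro-apoptotic BH3-only gene Bmf differed by -0.00 ± 0.29, with a 95% interval of -0.60 to 0.60. DNA repair genes gave 0 calls among 36, with 3 higher (4.04% of all genes) and 5 lower (4.88%) at an unadjusted p below 0.05. The integrated stress and unfolded protein response gave 0 among 36, with 4 higher and 2 lower, to be read against the same shares. Fgf21, a liver hormone of the stress response list, was -0.91 in replicate 4 and 1.04 to 1.94 in the other 3 treated animals, against 0.34 to 1.47 in controls.

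Metabolic lists held 0 calls each by the limma test. Of 25 cholesterol synthesis genes 5 were higher (4.04% of all genes) and 0 lower (4.88%) at an unadjusted p below 0.05. Their median was 0.125, and 0.25 without control replicate 2. Sqle, squalene epoxidase, was the one member with all treated animals above all controls (1.5% of all genes), at 0.62, 0.68, 0.26 and 0.15 at 4 mg/kg and -0.11, 0.09, -0.06, -0.49 and -0.57 in controls (difference 0.65 ± 0.20, limma adjusted p = 0.272). The medians were -0.09 for 26 fatty acid synthesis genes, -0.14 for 36 PPARA and fatty acid oxidation genes, -0.10 for 31 bile acid genes and -0.03 for 23 urea cycle and gluconeogenesis genes. Without control replicate 2 the PPARA median was -0.05, the bile acid median -0.05 and the urea cycle median 0.02. Without replicate 1 at 4 mg/kg the fatty acid synthesis median was -0.17, the bile acid median -0.25 and the urea cycle median -0.20. The medians were -0.05 for 24 CAR, PXR and AhR targets (0.02 without control replicate 2, -0.19 without replicate 1 at 4 mg/kg) and 0.00 for 30 sex-biased genes (0.10 and -0.09 in those fits). They were 0.01 for 20 clock genes and -0.03 for 23 metallothionein and iron genes. With slide as a block the fatty acid synthesis median was -0.02, the PPARA median -0.10, the bile acid median -0.01 and the urea cycle median 0.10. Under 25 alternatives, 18 of the 34 list medians changed sign at least once. The bile acid enzyme gene Cyp7a1 differed by -0.01 ± 0.46 and the AhR target Cyp1a2 by -0.09 ± 0.28.

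Inflammatory and cell type lists also held 0 calls by limma with group as the only term. The chemokine gene Cxcl10, which attracts T cells, read 0.79, 0.43, 0.97 and 0.53 at 4 mg/kg and -0.27, -0.09, -0.02, 0.30 and -0.19 in controls. Its difference of 0.73 ± 0.16 had a limma adjusted p of 0.0825. It passed without loess (adjusted p = 0.0331) and with slide as a random block (adjusted p = 0.0262). List medians were -0.08 over 21 cytokine and chemokine genes, -0.10 over 32 interferon and antigen presentation genes and -0.17 over 31 acute phase genes. For cells of the liver they were -0.13 for periportal hepatocytes, -0.21 for Kupffer cells and macrophages, -0.09 for neutrophils, -0.11 for T and NK cells and -0.14 for B and plasma cells. They were -0.02 for stellate cells and matrix, 0.02 for cholangiocytes and progenitors, -0.13 for sinusoidal endothelium, -0.23 for erythrocytes and -0.11 for adipose tissue. Without control replicate 2 the acute phase median was -0.02, and the medians were 0.02 for periportal hepatocytes, -0.14 for Kupffer cells, -0.12 for erythrocytes, -0.15 for neutrophils, -0.21 for B and plasma cells and -0.08 for sinusoidal endothelium. Without replicate 1 at 4 mg/kg they were 0.04 for neutrophils, -0.03 for B and plasma cells, -0.22 for sinusoidal endothelium and -0.26 for adipose tissue. With slide as a block the medians were 0.05 for periportal hepatocytes, -0.09 for Kupffer cells, 0.09 for neutrophils and -0.02 for T and NK cells. In that fit they were -0.04 for sinusoidal endothelium, -0.01 for erythrocytes and 0.02 for acute phase genes. Those of B and plasma cells (-0.14), adipose tissue (-0.11) and interferon genes (-0.10) hardly moved. The 8 measured exocrine pancreas genes had a median of 1.21, and of 0.11 without replicate 1 at 4 mg/kg. The defining pancreatic genes Prss1, Cpa1 and Pnlip were not among the genes tested.

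Set between its neighbouring doses, 8 mg/kg differed from 4 mg/kg for 41 genes at a limma adjusted p below 0.05, of which 34 were higher at 8 mg/kg (0.171%) and 7 lower (0.0352%). With slide as a block 67 passed, 37 of them among the 41. Leaving out any 1 array of these groups gave 15 to 29, the fewest without replicate 4 and the most without replicate 1 at 4 mg/kg. No control array enters this difference. Cdkn1a was 1.49 ± 0.17 higher at 8 than at 4 mg/kg (adjusted p = 4.11e-04), Aen 0.62 ± 0.09 higher (adjusted p = 0.00372) and Tubb4b 0.67 ± 0.13 higher (adjusted p = 0.0316), the 3 of the 15 called genes that also passed here. Of the p53 list 7 members passed, all higher at 8 mg/kg, Mdm2 with them at 0.45 ± 0.09 (adjusted p = 0.0316).

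Several genes short of the threshold at 4 mg/kg differed between these doses. Jun was 1.57 ± 0.20 higher at 8 mg/kg (adjusted p = 0.001) and Atf3 1.31 ± 0.20 higher (adjusted p = 0.00496). Dppa5a, known from early embryo and germ cells, was also called higher at 8 mg/kg (limma adjusted p = 0.00109). There all 5 arrays were well above background, against 1 of 4 at 4 mg/kg. Of these 2 doses only 8 mg/kg, where Dppa5a is high, met the detection filter, so its call is not separate from that filter. The size of its difference rests on values near background at 4 mg/kg and is not given. Gm10639, Gdf9 and Cbr3 were also higher at 8 mg/kg, by 2.44 ± 0.42, 1.64 ± 0.31 and 1.55 ± 0.30. Bmf fell by 1.48 ± 0.29 (adjusted p = 0.0316) and the Bardet-Biedl chaperonin gene Bbs10 by 0.89 ± 0.16 (adjusted p = 0.0239). Shld1, a DNA end protection gene, fell by 0.53 ± 0.11, the Wnt receptor gene Fzd8 by 0.73 ± 0.14 and Ptrh2, a mitochondrial peptidyl-tRNA hydrolase gene, by 0.41 ± 0.08. At 4 mg/kg Bbs10 already read 0.73, 0.76, 0.69 and 0.68, against 1.51, 1.52, 1.18, 1.35 and 1.39 in controls, a difference of -0.67 ± 0.16 (limma adjusted p = 0.13).

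Against 2 mg/kg, 0 genes passed by limma (0%), while 953 had an unadjusted p below 0.05 (4.79%) and the smallest adjusted p was 0.0644, that of ENSMUST00000115431. Cdkn1a was 0.71 higher at 4 than at 2 mg/kg (adjusted p = 0.794) and Aen 0.22 higher (adjusted p = 0.95). Over the doses from control to 8 mg/kg, Cdkn1a averaged -4.12, -3.89, -3.54, -2.82 and -1.33. All 4 animals at 4 mg/kg lay above all 5 at 2 mg/kg and below all 5 at 8 mg/kg. Aen averaged -0.63, -0.48, -0.14, 0.08 and 0.71 and Tubb4b -1.35, -0.95, -0.91, -0.51 and 0.16 over the same doses. Mettl27, with 1.49, 1.21, 1.13, 0.89 and 0.89, did not pass between 8 and 4 mg/kg, with a difference of -0.01 ± 0.10 (limma adjusted p = 0.995). Tomm40l averaged 0.85 at 4 and 1.01 at 8 mg/kg, a difference of 0.16 ± 0.14 (limma adjusted p = 0.838).

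**Figure D5:**
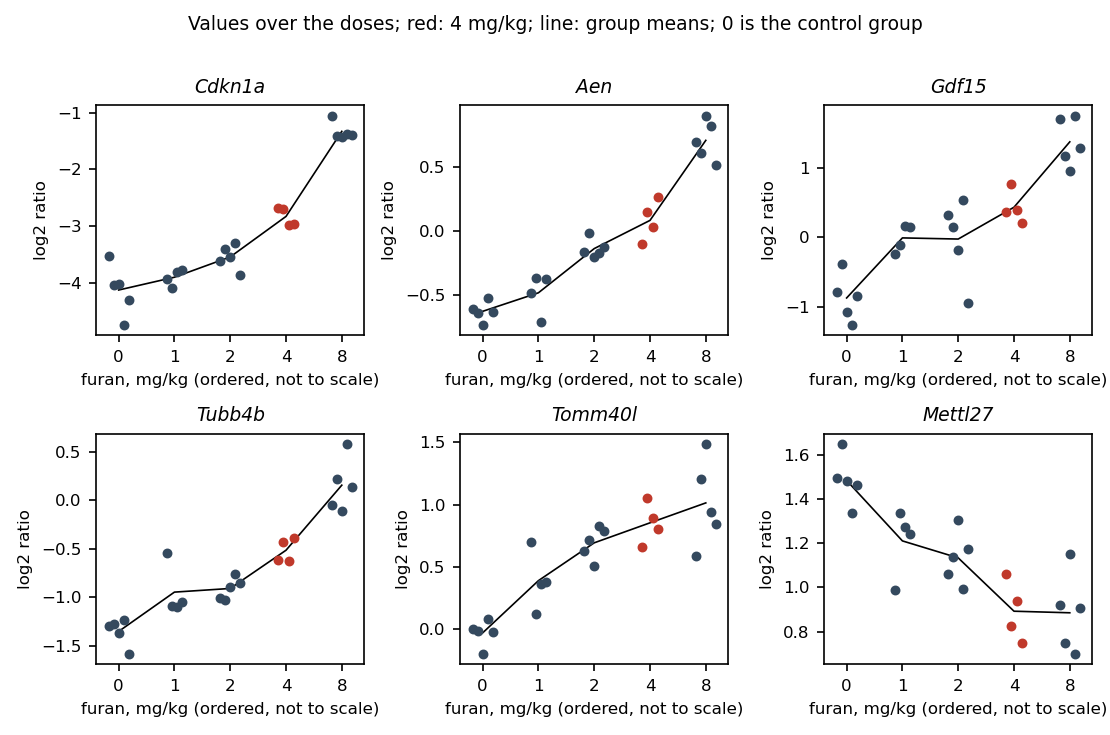
Log2 ratios of 6 of the named genes past the threshold at 4 mg/kg in every animal of the series, against furan dose in mg/kg in order (0 is control; spacing is not to scale). Points are arrays, red at 4 mg/kg, and the line joins group means; Cdkn1a means run from -4.12 in controls through -2.82 at 4 mg/kg to -1.33 at 8 mg/kg, and Mettl27 means are 0.89 at both 4 and 8 mg/kg.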

How the data were processed

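Liver RNA (Cy5) and universal mouse reference RNA (Cy3) were hybridised to 2-colour mouse arrays with no dye swap, per the labels. The deposited intensity values were background-subtracted and dye-normalised with Agilent Feature Extraction 10.7.3.1, per the file headers. The authors also deposited a table of ratios, whose processing is not given in the sources used here. It holds linear ratios of liver over reference, found by setting each column against that array's median signals after loess (correlations 0.995 to 0.997, column medians 0.974 to 0.987), and served as an alternative. The spot marks deposited beside the signals, per the file headers, gave the detection calls.

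Here log2 ratios of the processed signals were loess-normalised within each array (span 0.3, 4 iterations, limma 3.58.1, R 4.3.3, data.table version 1.17.8). Control spots and marked outliers were left out, and spots of a probe averaged. Of 55681 probes, 26421 matched 20022 mouse symbols through RefSeq or Ensembl accessions or through a name equal to a symbol. A kept probe exceeded background clearly in 4 or more arrays of at least 1 group and had 3 or more values in each group, and the brightest probe stood for a gene, leaving 19899 genes, 12928 of them with a symbol. lmFit and eBayes ran on all 23 arrays with group as the only term (18 residual degrees of freedom), with Benjamini-Hochberg adjustment over all genes and a threshold of 0.05. The number of arrays limits the precision; the median residual SD was 0.236. Arrays are biological replicates per the labels, which mention shared cages without tying an animal to one, so an effect of cage was not tested. Promoters are RefSeq's.

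The members and the 34 gene lists (966 entries, 826 measured) were chosen with earlier results of these data known. The text names called genes with a symbol, called list members, 26 genes fixed whatever their values, the 5 largest rises and falls with a symbol between neighbouring doses, and up to 4 members per list with the largest moderated statistic; Tuba1c, Phlda3, Zmat3 and the probes without a symbol were chosen after their values were seen. Alternatives changed the background correction, normalisation, filters, probe summary, blocks, priors, weights and arrays used. A few genes are not reported here. The pipeline was tested on simulated data.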

Additional observations from a re-analysis of the deposited data

Results flagged for a closer look

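In each group of 4 or 5 arrays the gap between the highest or lowest array and its nearest neighbour was divided by the full range of the group. The larger ratio was judged by Dixon's test at the 95% level, which chance passes in about 1 in 20 groups. Of 163 genes 7 passed in the 4 mg/kg group (4.29%) and 10 in controls (6.13%), and of 34 list scores 3 (8.82%) and 5 (14.7%).

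Replicate 1 at 4 mg/kg stood above the rest of its group for pancreatic transcripts: the pancreas score was 4.0899 (others 0.0097 to 0.2931), the elastase gene Cela1 read 3.892 (others -0.183 to 0.241) and Clps read 6.618. It was also the highest for the keratin gene Krt8 at 0.447, for the NRF2 score at 0.1342 and for the stellate and matrix score at 0.1569, and the lowest for Mdm2 at -1.181 (others -0.84 to -0.8). Other arrays at 4 mg/kg stood low for single genes: replicate 2 for Cldn7 at -1.659 and Dusp2 at -4.201, and replicate 3 for the endothelial receptor gene Flt1 at 0.101.

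Control replicate 2, the only control on slide 3, stood high for several hepatocyte measures. Its scores were 0.5504 for acute phase proteins, 0.516 for bile acid genes, 0.2442 for furan bioactivation and 0.5409 for pericentral markers. Cyp2e1 read 8.057 there (others 6.985 to 7.184), the transporter gene Slco1a1 10.381 (others 7.496 to 8.282) and the histidine catabolism gene Uroc1 6.857 (others 6.082 to 6.248). Arrays of slide 3 at 1, 2 and 8 mg/kg read 7.907, 8.034 and 7.729 for Cyp2e1, each the highest of its dose group. The high Cyp2e1 reading was thus not particular to this animal, and what sets slide 3 apart was not tested.

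The remaining control values were single genes and 1 score. Control replicate 1 was highest for Gsdme at -1.399 and lowest for Pex11a at 3.492. Control replicate 3 was lowest for Cyp46a1 at 2.813 and Nkg7 at 1.165. Control replicate 4 was highest for Ephx1 at 2.423 and lowest for Orm3 at 3.942 and for the pericyte gene Rgs5 at 2.824 (others 6.076 to 7.265). Control replicate 5 had the highest neutrophil score at 0.3514.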

How the results depend on the processing

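Against the 15 genes called at 4 mg/kg versus control, 9 were called from median signals without background correction, 53 without loess, 6 without the filter on dim probes, 63 with slide as a block, 120 with slide as a random block (correlation 0.244), 38 with array weights, 1 with the 9 arrays alone and 3 without the 4 arrays of the series rich in pancreatic transcripts. All 15 were among the calls with slide as a block and with the random block, 13 without loess and 14 with array weights. Normexp gave 13, the deposited ratios 15 (10 of them shared), detection on every array 15, the mean over a gene's probes 18 and an intensity trend 22. Quantile scaling of the average intensity leaves the ratios as they are and gave 15. Slide as a block without replicate 1 at 4 mg/kg, chosen after seeing the data, gave 22. Leaving out 1 array gave 5 (without replicate 2 at 4 mg/kg) to 17 (without control replicate 1): 8, 6, 8 and 11 without control replicates 2 to 5, and 10, 6 and 8 without replicates 1, 3 and 4 at 4 mg/kg. For 8 against 4 mg/kg, with 41 calls, the counts were 27 without loess, 26 from the deposited table, 16 without the filter, 67 with slide as a block, 117 with the random block, 71 with weights, 2 with those groups alone, 21 without the pancreas-rich arrays and 15 to 29 without 1 array. For 4 against 2 mg/kg, with 0 calls, they were 1 without loess, 1 with slide as a block, 2 with the random block and 0 to 1 without 1 array. The replicate block gave 9, 25 and 2 calls in the 3 comparisons. Same-numbered arrays of the 4 mg/kg and control groups correlated at -0.20 to 0.18 in their deviations over 4 pairs, 1 of 4 best with its own number. These values show no pairing by number. They cannot exclude one, because no same-numbered pair shared a slide, and the 4 pairs that did share a slide correlated at 0.15 to 0.31. Fewer arrays give fewer residual degrees of freedom; the cause of the other shifts was not tested. No named gene past the threshold changed sign. Of 4099 gene values under an alternative, 3928 kept their direction and side of the threshold, and of 850 list medians 819 moved by less than the spread between controls.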
